A study of Arabidopsis thaliana with 8 samples.

Results

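The genes described are 10 regulators of the transition to flowering in Arabidopsis, out of 37899 nuclear genes of the annotation: SOC1, FT, FLC, SVP, LFY, AP1, FUL, AGL24, CO and TSF. They were chosen by name, and all 10 loci were found. For each gene, the binding peaks of GNC and CGA1 were taken from the region that runs from 2 kb upstream of the gene to 1 kb downstream of it. GNC and CGA1 are paralogous GATA transcription factors, best known for their roles in chlorophyll synthesis and greening. The data are chromatin immunoprecipitations followed by sequencing (ChIP-seq) from whole rosette leaves of 3-week-old Col-0 plants grown in long days, from a line overexpressing myc-tagged GNC and a line overexpressing myc-tagged CGA1. Each line gave 2 biological replicates, and each replicate an anti-myc IP library and an INPUT library, 8 libraries in all. Both lines carry an overexpressed, tagged protein, so the peaks are those of a factor at a raised level. The IP was set against INPUT only, and an IP from untagged plants was not analysed here. The samples are leaves, and the shoot apex, where several of these genes act, was not sampled separately.

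Flowering in Arabidopsis is set by converging pathways. Day length acts through CO, a B-box protein that activates FT and its close relative TSF in the leaf, whose small proteins travel to the shoot apex as florigen. FLC and SVP are MADS-box repressors that bind FT and SOC1 and hold flowering back, FLC until a cold period silences it. SOC1 and AGL24 are MADS-box activators at the apex, where signals from these pathways are combined. LFY, AP1 and FUL then give the new meristems their floral identity.

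The 4 peak lists, one per IP library, held 5745 and 5722 peaks for GNC and 2456 and 2399 peaks for CGA1. Each peak has a start, an end and a score, which is 10 × −log10 of the p-value of the IP against its INPUT, with a lowest listed score of 50. Read counts were not among the listed values. The depth of the libraries was not used here, and a score has no error of its own. Peaks were compared by score only within a list. A limit of 100, applied to all lists alike as an alternative, was the exception, and counts by it also depend on depth. The replicate lists of a line are not independent in their edges. All 4734 GNC peaks of replicate 1 that overlapped a peak of replicate 2 had the same start and end in both lists (100%), as did 891 of 1918 CGA1 peaks (46.5%), and 545 and 240 of these also had the same score. For this reason the replicates of a line count as 1 sample here, and no test of a difference between GNC and CGA1 was made.

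The sequences under 4 of the peaks carry the description that follows, and are shown here on the strand of the gene, 5′ to 3′. They are the RefSeq reference sequence of TAIR10.1, whose chromosomes have the lengths of the TAIR10 genome used for the peaks. Capitals mark GATA, the core of the motif known for GATA factors, or GATC, on either strand, so that GATA on the other strand reads TATC. The first is the part of the CGA1 peak at the SOC1 start site that lies upstream of the transcription start site (TSS), 121 bases at chr2:18811126-18811246. The second is the central 300 bases of a CGA1 peak farther upstream of SOC1, chr2:18813070-18813369. The third is the intergenic stretch of the GNC peak beyond the end of SOC1, 150 bases at chr2:18806587-18806736. The last is the whole GNC peak in the CO promoter, 242 bases at chr5:5173454-5173695.
SOC1 start site, CGA1: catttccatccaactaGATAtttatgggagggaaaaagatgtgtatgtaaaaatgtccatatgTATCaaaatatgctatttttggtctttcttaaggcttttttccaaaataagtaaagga
SOC1 upstream, CGA1: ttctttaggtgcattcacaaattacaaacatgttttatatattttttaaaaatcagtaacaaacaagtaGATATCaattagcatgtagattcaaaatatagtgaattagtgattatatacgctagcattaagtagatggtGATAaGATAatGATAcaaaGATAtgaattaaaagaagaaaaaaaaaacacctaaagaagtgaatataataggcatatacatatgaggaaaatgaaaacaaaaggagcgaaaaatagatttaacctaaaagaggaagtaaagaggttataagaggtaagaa
SOC1 downstream, GNC: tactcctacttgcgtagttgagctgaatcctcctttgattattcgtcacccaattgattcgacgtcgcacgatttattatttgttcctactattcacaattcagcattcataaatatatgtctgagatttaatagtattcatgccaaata
CO promoter, GNC: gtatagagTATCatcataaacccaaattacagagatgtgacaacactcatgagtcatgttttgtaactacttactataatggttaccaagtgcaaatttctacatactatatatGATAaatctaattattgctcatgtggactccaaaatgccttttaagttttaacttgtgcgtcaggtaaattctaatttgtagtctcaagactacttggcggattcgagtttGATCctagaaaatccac
The start-site stretch of SOC1 held 2 matches, the upstream stretch 6 and the CO peak 3. The 150 bases of the GNC peak beyond SOC1 held none, while that whole peak of 409 bp held 1 GATC. The stretches differ in length, so these counts do not compare the factors.

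Across the 10 genes, peaks of GNC were found at SOC1, AGL24 and CO, and peaks of CGA1 at SOC1 and FUL. A gene was called for a factor when both lists of the line held a peak that overlapped its region by at least 1 bp. By this rule 3 of the 10 genes were called for GNC, beside 20.3% of all genes and 22.9% of the 27444 protein-coding genes. CGA1 gave 2 of 10, beside 8.69% of all genes and 9.94% of protein-coding genes. SOC1 was the only one of the 10 called for both factors, against 2.18% of all genes. The regions of the 10 genes were longer than most, with a median of 6415.5 bp against 4796 bp for all genes, and a longer region can hold more peaks. FT had a GNC peak in 1 list only. FLC, SVP, LFY, AP1 and TSF had no peak in any of the 4 lists, 5 of 10 genes, while 64.0% of all genes had none. With 10 genes a single gene moves a share by 10.0%, so these counts are not far from the shares of all genes.

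**Figure D1:**
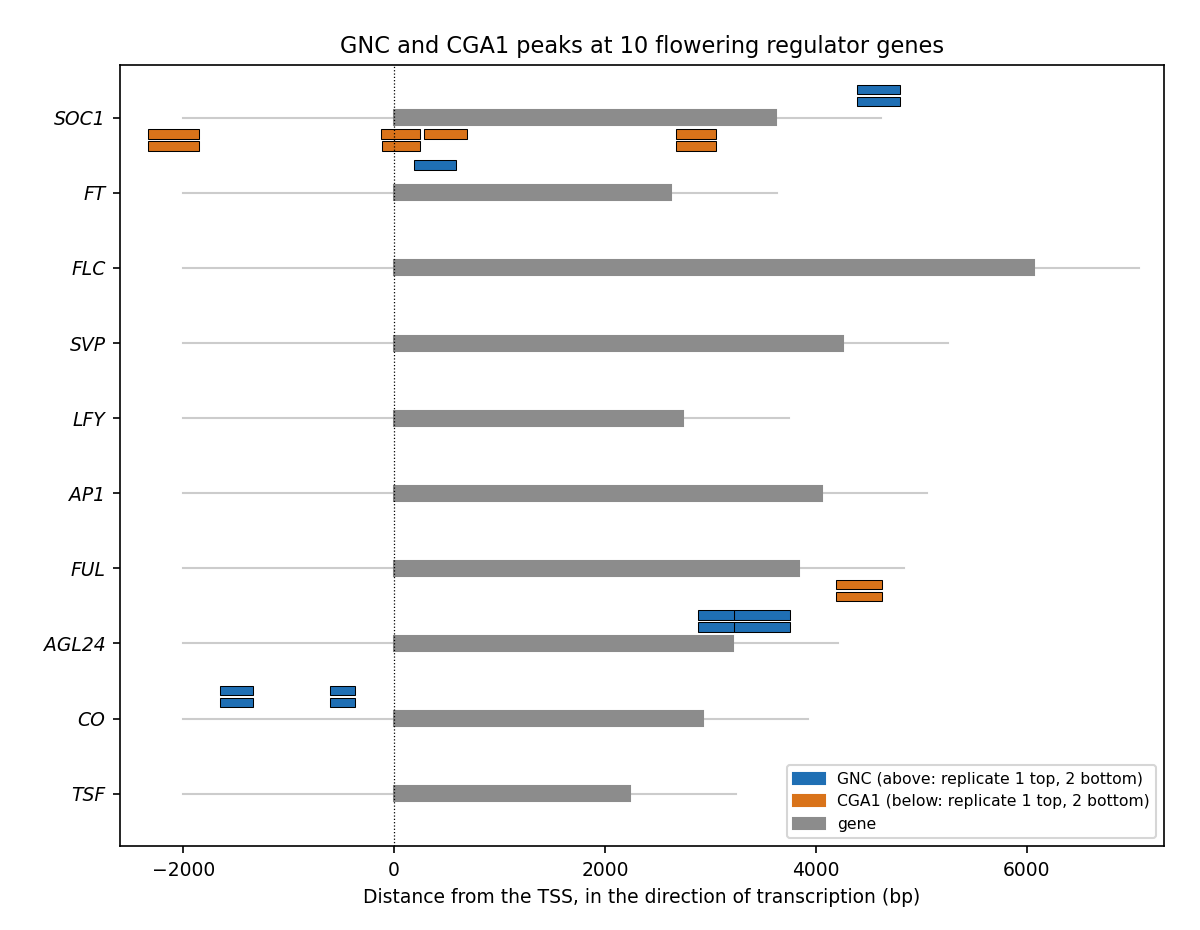
Map of the 10 genes drawn to scale from the TSS in the direction of transcription (bp), with GNC peaks above and CGA1 peaks below each gene, replicate 1 over replicate 2, and a thin line for the region from 2 kb upstream to 1 kb downstream. SOC1 is the only gene with peaks of both factors, FT has a peak in 1 list, and 5 genes have none.

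The 10 genes held 11 peak intervals, of which 9 were in both lists of a line, 5 of GNC and 4 of CGA1. Of these 9, only 2 had their centre in the window from 1 kb upstream to 100 bp downstream of the TSS, the window by which the study assigned peaks to genes: the CGA1 peak at SOC1 and a GNC peak at CO. By that window, and from the deposited lists, 1 of 10 genes was called for GNC and 1 for CGA1, beside 4.81% and 2.04% of all genes. The other intervals lay downstream of the gene (3), farther upstream (2) or within the gene (2). In the deposited lists no GNC interval overlapped a CGA1 interval at any of the 10 genes, with a doubt on SOC1 that is given below.

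SOC1, AT2G45660, at chr2:18807505-18811125 on the minus strand, had the highest-ranking peaks. A CGA1 peak covered its TSS in both lists. In replicate 1 it ran over chr2:18810877-18811246, 370 bp, with a score of 220.74, which was rank 4 of 2456 peaks. In replicate 2 it ran over 18810881 to 18811242, 362 bp, with a score of 210.49, rank 8 of 2399. The peak was thus among the few strongest of both CGA1 lists, within the top 0.163% and 0.333%. Its centre lay 64 bp downstream of the TSS, and in replicate 1 it covered 249 bp of the 5′ untranslated region (UTR) and 121 bp upstream of the gene.

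SOC1 held 2 further CGA1 peaks in both lists, with lower scores. The upstream peak, chr2:18812979-18813459, was centred 2094 bp before the TSS in intergenic sequence and scored 86.39 in both lists, ranks 356 and 360. Its centre lies outside the 2 kb limit that its edge overlaps, and the nearest TSS to it was that of a non-coding RNA gene, AT2G09655, 1013 bp away. The peak inside the gene, chr2:18808074-18808455, was centred 2861 bp after the TSS and scored 53.22 in both lists, ranks 2122 and 2062. It covered intron, coding exon and 3′ UTR. Both peaks had the same edges and the same score in the 2 lists, so the second list adds no separate measurement of either. Another CGA1 peak, chr2:18810436-18810844, next to the start-site peak and centred 485 bp after the TSS, was in replicate 1 only, with a score of 56.47.

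Few genes held as many CGA1 peaks as SOC1. At least 3 CGA1 peaks in each list were found in the regions of 11 genes, 0.0290% of all genes. The limit of 3 was the count at SOC1 itself in replicate 2. That count includes the upstream peak, whose edge overlaps the region and whose centre lies outside it. The others were LOX2, a lipoxygenase gene of jasmonate synthesis, the cell wall enzyme gene XTH7, the glutamine synthetase gene GLN1;4, SRO4, ABCA2 and 5 genes known by locus only. SRO4 and ABCA2 are neighbours by locus number, and neighbouring genes can share peaks in their regions.

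The GNC peak assigned to SOC1 lay elsewhere. It ran over chr2:18806328-18806736, 409 bp, with scores of 145.81 and 139.14, ranks 80 of 5745 and 119 of 5722. It stood 769 bp beyond the end of SOC1, and 259 bp of it were 3′ UTR of the adjacent gene AGL6, a MADS-box gene of floral organ development, whose TSS was the nearest at 2342 bp. The GNC peak was 1337 bp from the nearest CGA1 peak of SOC1 and 4140 bp from the CGA1 peak at the start site. Neither deposited GNC list held a peak over the SOC1 gene or in the 2 kb before it, and neither CGA1 list held one in the 1 kb past its end. In these lists SOC1 counted for both factors only because its region reaches 1 kb past the gene. The study names SOC1 a target shared by both factors and reports raised SOC1 expression in the gnc, cga1 and gnc cga1 mutants. Its supplementary peak table, unlike the deposited lists, has a GNC peak at the SOC1 start site in each replicate. Which version is right could not be settled here, so every statement on GNC at SOC1 describes the deposited lists alone.

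**Figure D2:**
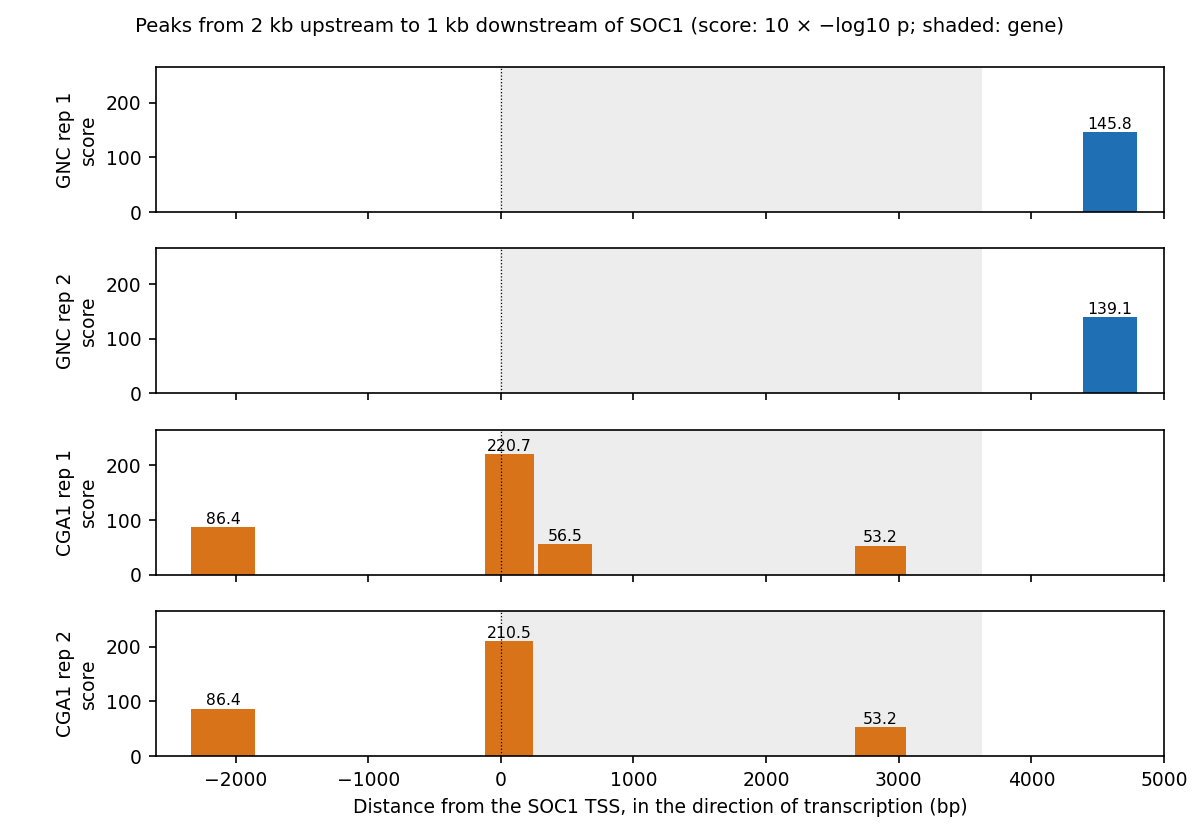
Score of each peak (10 × −log10 p) against distance from the SOC1 TSS (bp), one panel per IP library, with the gene shaded. CGA1 has its highest score at the TSS in both replicates (220.7 and 210.5), and GNC has a single peak beyond the end of the gene (145.8 and 139.1).

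CO, AT5G15840, at chr5:5170162-5173085 on the minus strand, had 2 GNC peaks in both lists and no CGA1 peak. The nearer, chr5:5173454-5173695, had its centre 489 bp upstream of the TSS. CO was the gene with the nearest TSS. It scored 67.1 in replicate 1 and 73.58 in replicate 2, ranks 2648 and 2011, in the middle of both lists. The farther one, chr5:5174429-5174736, was centred 1497 bp upstream and scored 59.5 and 56.44, ranks 3699 and 4266. Both lie within a non-coding RNA gene on the other strand, AT5G15845, and cannot be given to CO or to this transcript from position alone.

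AGL24, AT4G24540, at chr4:12670897-12674106 on the minus strand, had 2 GNC peaks at its 3′ end. The first, chr4:12670885-12671224, covered 263 bp of the 3′ UTR and scored 90.52 and 92.82, ranks 913 and 860. The second, chr4:12670352-12670879, began past the end of the gene and scored 59.3 and 69.68, ranks 3730 and 2404. The TSS nearest to both peaks was that of the next gene, AT4G24530. It lay 832 bp from the centre of the first peak and 393 bp from that of the second. No peak of either factor was found in the promoter of AGL24. At least 2 GNC peaks in each list were found for 2.36% of all genes, and for AGL24 and CO among the 10.

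FUL, AT5G60910, a relative of AP1 that also acts in fruit development, is named AGL8 in the annotation and lies at chr5:24502434-24506269 on the minus strand. Its CGA1 peak, chr5:24501647-24502078, scored 67.91 in replicate 1 and 102.3 in replicate 2, ranks 961 and 175. The ranks differed more than those of any other peak of CGA1 at these genes, 39.1% against 7.29% down the list. The peak was 356 bp past the end of FUL, and the nearest TSS, 92 bp from its centre, was that of the neighbouring receptor-like kinase gene RLK1, AT5G60900. It covered 124 bp of the 5′ UTR of RLK1, so FUL was reached only through the downstream part of its region.

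FT, AT1G65480, at chr1:24331373-24333999 on the plus strand, had a GNC peak in replicate 1 only. It ran over chr1:24331566-24331958, centred 389 bp after the TSS over the first part of the gene, and scored 52.64, rank 5099 of 5745. In replicate 2 the nearest GNC peak was 19408 bp from FT. The score was close to the lowest listed, and 6.98% of all genes likewise had a GNC peak in 1 list only.

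**Figure D3:**
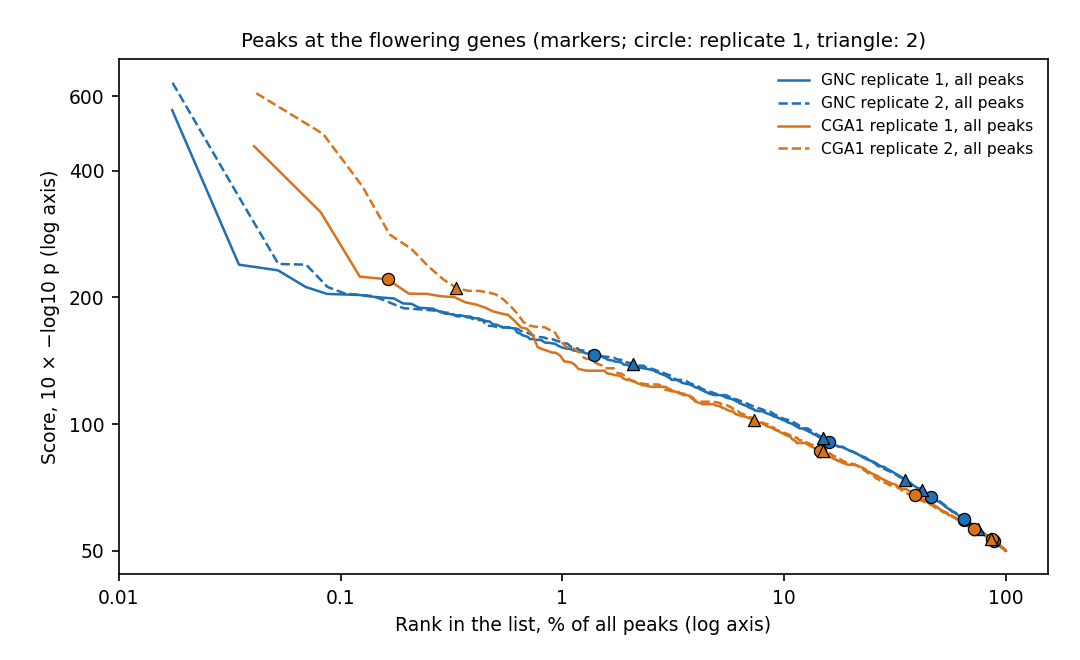
Score (10 × −log10 p, log axis) against rank as a percentage of the list (log axis) for all peaks of the 4 lists (lines), with the peaks at the 10 genes marked (circles replicate 1, triangles replicate 2). The CGA1 start-site peak of SOC1 is the leftmost marker of each CGA1 list, at 0.163% and 0.333%, and the SOC1 GNC peak follows at 1.39% and 2.08%.

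The 5 genes with no peak differed in how far the nearest one was. FLC, the cold-silenced repressor, had a GNC peak 1673 bp past its end in both lists, with scores of 61.32 and 50.26, which falls outside the 1 kb limit. LFY, the master regulator of floral meristem identity, had its nearest CGA1 peaks 4708 bp downstream in replicate 1 and 3665 bp upstream in replicate 2, which are different peaks. AP1, SVP and TSF had no peak of either factor nearer than 11425 bp. TSF, the FT relative, lay farthest from CGA1 of these 3 in both lists, at 50564 and 50568 bp. Over all genes the median gap to the nearest peak was 5854 and 5955 bp for GNC and 15501 and 15858 bp for CGA1. FLC was nearer to GNC than this median, and FLC, LFY and AP1 were nearer to CGA1 than its median in both lists, as was SVP in replicate 2. An absent peak says that no interval reached the lowest listed score, and does not show that a factor was absent.

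**Figure D4:**
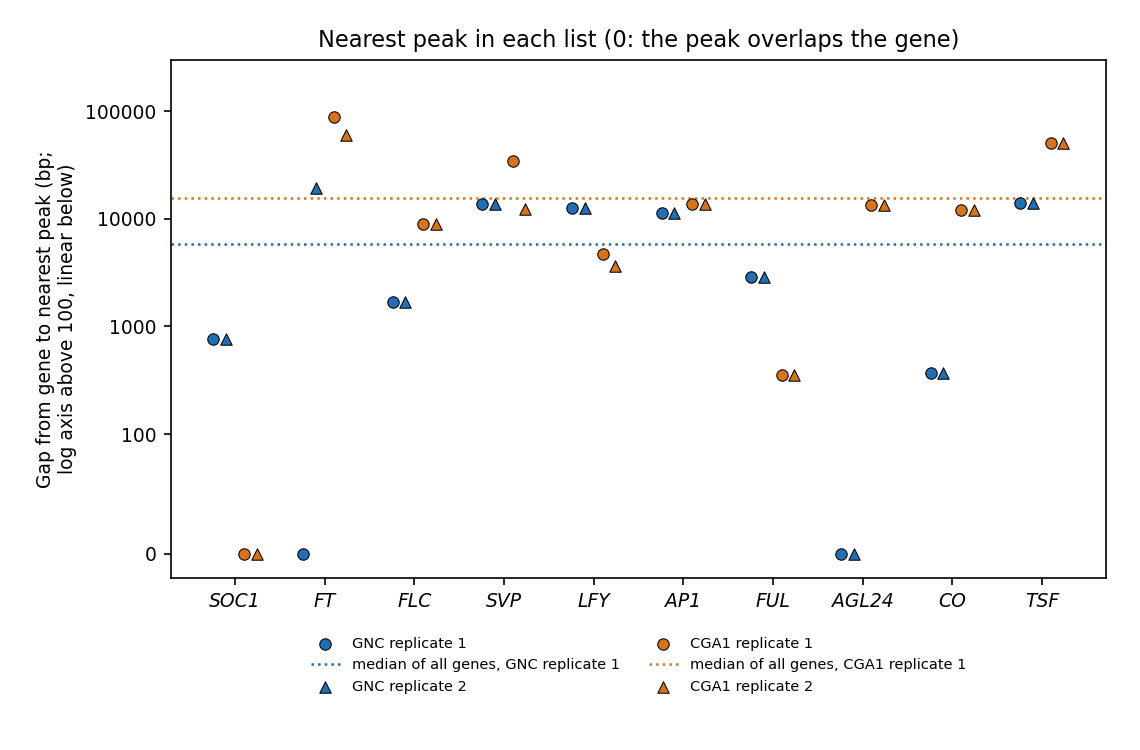
Gap in bp from each gene to the nearest peak in each list (log axis above 100, linear below, 0 where a peak overlaps the gene), with circles for replicate 1, triangles for replicate 2 and dotted lines at the median over all genes in replicate 1 (5854 bp for GNC, 15501 bp for CGA1). SOC1 overlaps CGA1 peaks and AGL24 overlaps GNC peaks in both lists, and FT does so in 1 list.

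The letters under the peaks were then counted. The motifs searched, on both strands, were GATA, GATC, the WGATAR form of GATA (GATA after A or T and before A or G), CANNTG known as the E-box, CACGTG known as the G-box and itself an E-box, the repeat GAGAGA, the TCP-type word TGGGCC and the CArG box of MADS-box proteins. Peaks were counted with their replicate 1 edges, and shares of peaks are those of the replicate 1 list of the factor. GATA is so short that most stretches of a peak's length hold it. The 409-bp GNC peak at SOC1 had none, while 96.6% of GNC peaks trimmed to that length around their centre had at least 1, as had 96.2% of stretches of that length directly upstream of all TSSs. It had 1 GATC, which 73.7% of such GNC peaks and 64.9% of the upstream stretches also held. The CGA1 peak at the SOC1 start site had 3 GATA, and 63.6% of CGA1 peaks and 61.6% of upstream stretches had as many. The CGA1 peak upstream of SOC1 had 8, which 8.96% of CGA1 peaks and 8.78% of upstream stretches reached, and 6 of the 8 are in the 300 bases shown, 4 of them within a short run of GATA repeats.

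At the other genes the counts were mostly ordinary. The CO promoter peak had 2 GATA (as many in 61.8% of GNC peaks and 60.5% of upstream stretches) and the farther CO peak 4 (29.2% of either). The farther CO peak also had 4 E-boxes, which 3.9% of GNC peaks and 2.7% of upstream stretches reached. The 2 GNC peaks of AGL24 had 2 and 1 GATA. The first of them had 3 GAGAGA matches (4.2% and 4.13%). The FUL peak had 4 GATA, which 54.0% of CGA1 peaks and 51.9% of upstream stretches reached, and no GATC. The SOC1 peak in CGA1 replicate 1 only had 5 GATC (2.57% and 1.78%), and the FT peak in GNC replicate 1 only had 1 CArG box (2.56% and 3.17%). The low shares named here were picked out of 8 motifs counted in each of the 11 intervals, and none was tested. A match describes letters and not a bound site. GATA and WGATAR were about as often present in the upstream stretches as in peaks. GATC, the E-box and GAGAGA were more often present in peaks at every length compared. The G-box, TGGGCC and the CArG box were less often present in peaks at every length. The upstream stretches were not matched to the peaks in base composition or position, and these differences were not tested.

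A list of 86 other genes of the flowering pathways, in 9 groups, was described by the same rule. A GNC peak was called at 36 of the 86 (41.9%) and a CGA1 peak at 12 (14.0%), beside the 20.3% and 8.69% of all genes given above. Of protein-coding genes, 22.9% and 9.94% were called. The list was written with earlier results of these data known, and a peak between neighbouring listed genes counts for each. The median region was 5896.5 bp, again longer than that of all genes. Both factors were called at 6 genes: FKF1, CIB1, NF-YC4, VEL1, TOE3 and TEM1 (6.98%, beside 2.18% of all genes). In the window around the TSS, GNC was called at 3 (PHYB, TOE3 and SPL15), 3.49% of the list beside 4.81% of all genes. CGA1 was called there at 1 (SPA1), 1.16% beside 2.04%. The listed genes thus exceeded all genes over the wide region and not, by peak centre, in this window. With any overlap of the window, 5 listed genes were called for GNC and 5 for CGA1, beside 6.48% and 2.81% of all genes. CGA1 was then above the share of all genes, and GNC was not. Most peaks of the wide region lay within or beyond the genes. The nearest TSS was that of the listed gene for 21 of the 36 genes called for GNC and for 9 of the 12 called for CGA1.

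**Figure D5:**
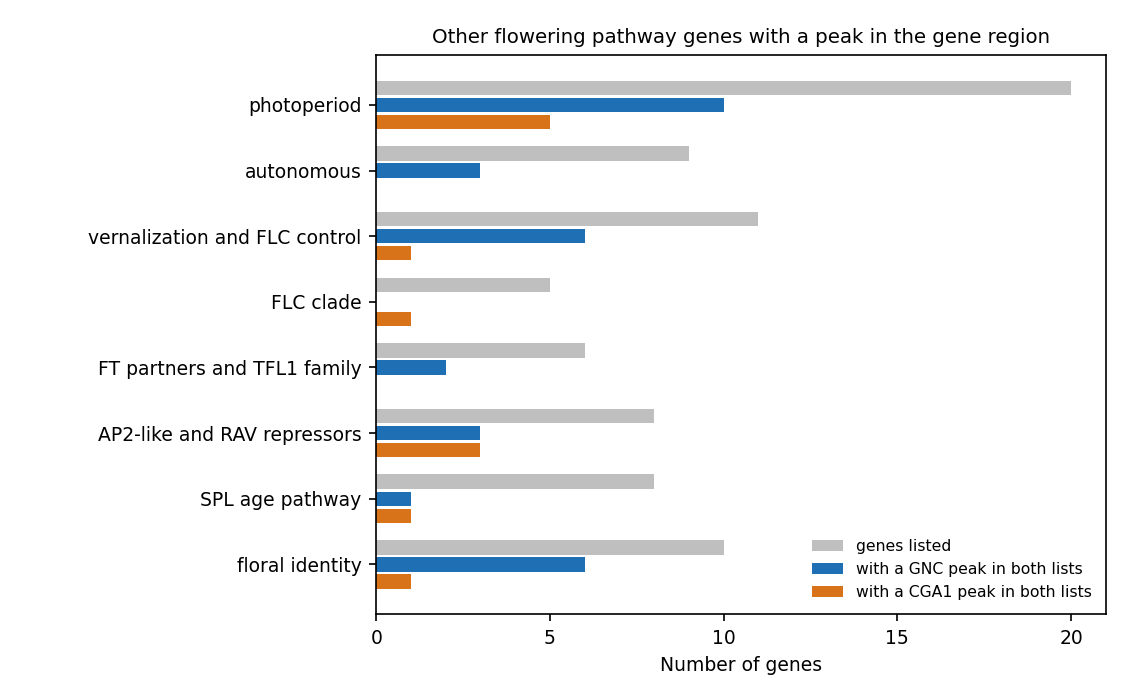
Number of genes in 8 of the 9 groups of the list of 86 other flowering pathway genes: genes listed (grey), genes with a GNC peak in both lists (blue) and genes with a CGA1 peak in both lists (orange). The photoperiod group has 10 GNC and 5 CGA1 genes of 20, and the FLC clade has no GNC gene among 5. Over all genes the shares were 20.3% for GNC and 8.69% for CGA1.

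The group counts that follow stand beside 20.3% of all genes for GNC and 8.69% for CGA1, and most groups hold few genes. The photoperiod group, the genes upstream of and beside CO, had GNC peaks at 10 of 20 genes (FKF1, CDF1, CDF3, COP1, PHYB, CIB1, NF-YB3, NF-YC4, NF-YC9 and HOS1) and CGA1 peaks at 5 (FKF1, CDF2, SPA1, CIB1 and NF-YC4). At PHYB, the red-light receptor, the GNC lists gave scores of 124.16 and 137.64 to a peak whose centre lay 875 bp before the TSS. The TSS nearest to it was that of AT2G18780, 739 bp away. FKF1, a blue-light receptor that removes the CDF repressors of CO, had a CGA1 peak past its end with scores of 92.51 and 89.4 and a GNC peak inside the gene with scores of 76.24 and 72.24. At CDF2, one of these repressors, a CGA1 peak 124 bp after the TSS scored 85.01 and 77.21, and a GNC peak centred 36 bp before the TSS was in replicate 1 only. SPA1, a partner of COP1 in the degradation of CO, had a CGA1 peak 51 bp before its TSS in replicate 1, with scores of 57.39 and 56.45. CDF3 was called through a different GNC peak in each list.

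In the autonomous pathway, whose genes lower FLC, 3 of 9 genes had GNC peaks (FVE, FLK and REF6) and none had a CGA1 peak. FLK, an RNA-binding protein gene, had 3 GNC peaks, the strongest centred 1864 bp upstream with scores of 136.82 and 140.29, although the nearest TSS to it was that of DAN1. REF6, a histone demethylase gene, had a GNC peak 299 bp after its TSS with scores of 104.16 and 103.97. Among genes of vernalization and FLC control, 6 of 11 had GNC peaks (FRI, VRN1, VIN3, VEL1, SDG8 and PIE1), and 1, VEL1, also had a CGA1 peak. FRI, an activator of FLC, had a GNC peak 436 bp past the gene, with scores of 117.19 and 108.53, and the nearest TSS was that of AT4G00651. PIE1, a chromatin remodeller gene needed for FLC expression, had a GNC peak inside the gene with scores of 117.17 and 111.05, and the nearest TSS was that of MYB10. In the FLC clade itself none of 5 genes had a GNC peak and MAF1 alone had a CGA1 peak, past its end, with a score of 68.17 in both lists.

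Of the FT partners and the TFL1 family, 2 of 6 had GNC peaks, ATC (1631 bp upstream, scores of 104.4 and 80.77) and FDP (273 bp after the TSS, scores of 79.22 and 86.98). FDP is the bZIP relative of FD, the protein with which FT acts. Among the AP2-like and RAV repressors of FT, 3 of 8 were called for each factor, TOE1, TOE3 and TEM1 for GNC and TOE2, TOE3 and TEM1 for CGA1. TOE3 had a GNC peak 565 bp upstream of its TSS, with scores of 69.28 and 115.13, and a CGA1 peak inside the gene, with scores of 79.99 and 77.52. TEM1 had its GNC peak inside the gene, with scores of 67.23 and 64.21, and its CGA1 peak past the end, with scores of 79.99 and 80.4. The peaks of both factors at TOE3 and TEM1 lay at different places.

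The age pathway of SPL genes had 1 of 8 called for each factor: SPL15 for GNC, 299 bp upstream with scores of 56.36 and 51.29, and SPL5 for CGA1, with scores of 61.52 and 51.59. The 10 floral identity genes had GNC peaks at 6 (CAL, SEP2, PI, AG, LMI1 and UFO) and a CGA1 peak at SEP1 only. CAL, the paralog of AP1, had a GNC peak 571 bp after its TSS with scores of 61.66 and 95.05. Another GNC peak lay at the 3′ end of CAL, with scores of 73.26 and 68.24, and its nearest TSS was that of AT1G26300, 244 bp away. The nearest GNC peak to AP1 was 11425 bp away. With a score of at least 100 in both lists, 6 of the 86 genes were called for GNC (PHYB, FLK, REF6, FRI, PIE1 and AGL6, the last by the GNC peak described at SOC1) and 0 for CGA1, beside 2.31% and 0.71% of all genes.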

How the data were processed

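Per the labels and the study's methods, the authors aligned reads to TAIR10 with Bowtie2 2.2.6 and called peaks of each IP against its INPUT with MACS, replicate by replicate. The deposited score of a peak is 10 × −log10 of its p-value. Peak starts were read as 0-based and are given 1-based, and peak centres stood in for summits. CGA1 INPUT samples were taken by title, since their descriptions mention GNC lists. Genes came from the TAIR10.1 RefSeq annotation (37899 nuclear genes). All 86 listed loci matched, 85 also by symbol, and 1 of their 9 groups is not reported here on its own. Counting used Python 3.11.15, numpy 2.4.6 and pandas 2.3.3, and the overlap code was tested on simulated data. The 10 genes and the pathway list, written from general knowledge, were chosen with earlier results of these data known. Every one of the 10 genes was named. So was every listed gene of the other groups with a peak in both lists of a line. Some neighbouring genes were named where theirs was the nearest TSS. No test was run, since the lists hold peak calls and not counts and the genes were chosen with earlier results known. The lists of a line also share peak edges. Alternatives covered other regions, overlaps and score limits, 1 list alone, the nearest TSS and other motif windows.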

Additional observations from a re-analysis of the deposited data

How the results depend on the processing

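The counts of genes with peaks follow the region chosen. Of the 10 genes, 3 were called for GNC, 2 for CGA1 and 1 for both. With any overlap of the window from 1 kb upstream to 100 bp downstream of the TSS these became 1, 1 and 0, and the listed genes fell from 36 to 5 for GNC and from 12 to 5 for CGA1, beside 6.48% and 2.81% of all genes. From 1 kb upstream to the gene's end, CGA1 was called at 1 and both factors at 0 of the 10, and the listed counts were 20 and 7, beside 13.3% and 5.65% of all genes. With 5 kb on each side, GNC was called at 5 (adding FLC and FUL), both factors at 2, GNC at 49 and CGA1 at 29 listed genes, beside 40.1% and 18.6% of all genes. CGA1 then also took in LFY, by different peaks in the 2 lists. A score of at least 100 left SOC1 alone for each factor (1 and 1), with 6 and 0 listed genes, beside 2.31% and 0.71% of all genes. Giving each peak only to its nearest TSS left CO for GNC and SOC1 for CGA1 (1 and 1, both factors 0), with 21 listed genes for GNC and 9 for CGA1, beside 10.8% and 4.51% of all genes. Without 1 replicate of a line, GNC was called at 3 to 4 of the 10 and 38 to 40 of the listed genes, CGA1 at 2 and at 12 to 13, and both factors at 1. The total of 35 GATA and GATC matches in the 9 intervals became 15 within 100 bp of the centres. Requiring overlapping peaks in the lists, chosen after seeing the data, changed none of the counts of the 10. No paired analysis was possible because the results come from no test. Depth was not used, so weaker peaks cannot be judged.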
